A study of Sus scrofa with 8 samples.

Results

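The cell death effector genes were 8 genes chosen by name: CASP8, FAS and TNFSF10 of apoptosis, RIPK1, RIPK3 and MLKL of necroptosis, and CASP1 and GSDME of pyroptosis. The deposited tables listed 7 of the 8 by symbol among 35683 features, and for TNFSF10 only the upstream sequence was analysed here. The files gave them as CASP8 (ENSSSCG00000028157), FAS (ENSSSCG00000010448), RIPK1 (ENSSSCG00000001009), RIPK3 (ENSSSCG00000001987), MLKL (ENSSSCG00000002716), CASP1 (ENSSSCG00000028711) and GSDME (ENSSSCG00000016716). Their unique molecular identifiers (UMIs), each standing for 1 captured RNA molecule, were summed over nuclei of each retinal cell class in each of 8 pig retinas, and AAV was compared with vehicle at each week.

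All retinas came from female Yucatan minipigs, 3 to 5 months old at the start of the study. Every animal had the enzyme Vitrase injected into the vitreous of both eyes 2 weeks before dosing and methylprednisolone, a glucocorticoid, weekly from 2 days before dosing, so both arms carried these treatments. Both eyes were then dosed intravitreally with AAV2.7m8/CAG-GFP at 5e+11 vg/eye or with vehicle. AAV2.7m8 is an engineered AAV2 capsid that reaches the retina from the vitreous, and CAG is a ubiquitous promoter that drove the green fluorescent protein EGFP here. At week 2 the AAV group was both eyes of 1 animal (7221) and the vehicle group both eyes of another (7222). At week 4 the AAV group was the left eyes of animals 7248 and 7249 and the vehicle group the left eyes of 7250 and 7251. The study's methods give an earlier day of sacrifice, after inflammation was seen, for some animals of both arms, and the labels do not say on which day each of these 4 died. The week 2 arms, with 1 animal each, allow no test of their own.

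Apoptosis from outside the cell starts when a death ligand binds a receptor such as FAS, which recruits the initiator protease CASP8. Where CASP8 is blocked, RIPK1 can instead activate RIPK3, which phosphorylates MLKL, and MLKL then opens the plasma membrane in necroptosis. Pyroptosis is a lytic death in which the inflammasome protease CASP1 and related enzymes cut gasdermins, the pore-forming family that includes GSDME. CASP8 also cuts RIPK1 and RIPK3, and RNA levels of these genes do not show whether any of the proteins was activated.

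The sequences upstream of the 3 members that rose together in Müller-like nuclei at week 4 are given here, with RIPK3 as a member that holds a searched motif. They are the 300 bases before the RefSeq gene start on Sscrofa11.1, written 5′ to 3′ on the gene's strand. The windows lie at chr14:100927005-100927304 for FAS, chr15:104923359-104923658 for CASP8, chr6:12923546-12923845 for MLKL and chr7:74950845-74951144 for RIPK3, all on the + strand. Capitals mark a match to TTCNNNGAA, the gamma-activated site bound by STAT dimers.
FAS: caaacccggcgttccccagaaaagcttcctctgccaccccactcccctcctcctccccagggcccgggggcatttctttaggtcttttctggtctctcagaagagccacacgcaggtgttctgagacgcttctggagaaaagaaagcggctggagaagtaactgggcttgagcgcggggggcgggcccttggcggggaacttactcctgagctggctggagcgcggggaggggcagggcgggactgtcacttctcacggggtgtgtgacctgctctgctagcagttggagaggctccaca
CASP8: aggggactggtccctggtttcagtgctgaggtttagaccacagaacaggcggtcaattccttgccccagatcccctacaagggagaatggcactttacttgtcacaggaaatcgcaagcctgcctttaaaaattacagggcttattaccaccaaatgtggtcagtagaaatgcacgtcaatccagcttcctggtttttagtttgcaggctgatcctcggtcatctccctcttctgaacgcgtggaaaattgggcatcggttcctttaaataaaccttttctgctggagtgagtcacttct
MLKL: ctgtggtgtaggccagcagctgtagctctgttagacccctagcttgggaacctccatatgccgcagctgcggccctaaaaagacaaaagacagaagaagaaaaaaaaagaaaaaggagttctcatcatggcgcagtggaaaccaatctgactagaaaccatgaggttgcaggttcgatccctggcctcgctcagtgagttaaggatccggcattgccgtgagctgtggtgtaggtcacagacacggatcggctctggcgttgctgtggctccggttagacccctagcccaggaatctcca
RIPK3: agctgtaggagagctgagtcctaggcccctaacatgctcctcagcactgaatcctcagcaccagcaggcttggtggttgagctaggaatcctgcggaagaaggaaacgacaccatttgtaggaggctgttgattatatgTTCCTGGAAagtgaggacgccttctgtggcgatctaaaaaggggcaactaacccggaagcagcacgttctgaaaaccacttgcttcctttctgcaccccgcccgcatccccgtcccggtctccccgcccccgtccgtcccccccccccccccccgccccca
Both strands were searched for TTCNNNGAA and for GAAANNGAA, the core of the interferon-stimulated response element. GAAANNGAA was in 0 of the 8 windows, against 8.40% of 19556 RefSeq windows of the same length. TTCNNNGAA was in 3 of 8, against 7.45%. The matches were TTCCTGGAA in RIPK3, 161 bases upstream, TTCACTGAA in CASP1, 93 bases upstream, and TTCCCTGAA in GSDME (RefSeq symbol DFNA5), 25 bases upstream. A match describes these letters and no match is a statement about the windows printed, not about any factor.

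The files held 388491 barcodes with 121544835 to 173614051 UMIs per retina, and 350567 nuclei were kept after a filter on mitochondrial share. Classes were gated on fixed markers and carry the word "like" because no deposited file names cell types. Gates took in 246249 nuclei, 10.9% of kept nuclei passed 2 classes and 18.8% passed none. Of the astrocyte-like nuclei, 95.3% lay within 0.5 markers of the minimum, against 17.0% of Müller-like and 0.209% of rod-like nuclei, and none of the 7 Müller markers was among that class's top 10 genes by fold. Müller-like nuclei numbered 3809 and 4784 in the AAV eyes and 5166 and 4069 in the vehicle eyes at week 2, and 1809 and 659 against 4044 and 4074 at week 4. At week 4 the AAV Müller-like nuclei also held more UMIs each on average than the vehicle ones. The part of this difference in depth and number in the values of that class was not tested. Myeloid-like nuclei numbered 1045 and 642 against 62 and 60 at week 4, and T/NK-like nuclei 776 and 648 against 0 and 1. Lanes of different retinas shared 0.178% to 0.514% of their barcodes, and lanes of 1 retina 0.245% to 0.495%. In the labels the batch and the group are 1 and the same, so they cannot be told apart.

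Levels are given as counts per 1e6 UMIs of the class (CPM). Counts from 3′ tags are not divided by length, so levels were not compared between genes. In vehicle retinas RIPK1, the kinase shared by survival and death signaling, was present in every class. Its level was 243 ± 66.0 CPM (SD, n = 3 animals) in myeloid-like nuclei and 67.6 ± 13.3 in astrocyte-like nuclei. Ganglion-like nuclei held 48.4 CPM and Müller-like nuclei 40.1, and rod-, cone- and bipolar-like nuclei lay between 23.2 and 26.3. CASP8 was also highest in myeloid-like nuclei, at 59.7 ± 13.3 CPM, followed by astrocyte-like nuclei at 4.94 ± 0.668 and Müller-like nuclei at 2.44 ± 0.226. CASP1 stood at 72.4 ± 24.3 CPM in myeloid-like nuclei. Ganglion-, astrocyte- and amacrine-like nuclei followed at 5.96 ± 2.09, 5.84 ± 2.10 and 3.89 ± 1.10 CPM of CASP1, and these 3 overlapped between animals.

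GSDME was highest in amacrine- and ganglion-like nuclei. Amacrine-like nuclei held 43.2 ± 2.95 CPM and ganglion-like nuclei 39.9 ± 4.74, which overlapped. Astrocyte-like nuclei came next at 23.7 ± 0.827 CPM, above horizontal- and cone-like nuclei and overlapping bipolar-like nuclei at 22.0, while rod-like nuclei held 5.83 and myeloid-like nuclei 3.53 ± 6.11 from 1 UMI. FAS was low in every vehicle class. It stood at 1.05 ± 1.20 CPM in astrocyte-like nuclei, where the SD exceeded the mean, and at 0.642 in Müller-like nuclei, and no FAS UMI was found in vehicle myeloid-like nuclei. MLKL, the membrane executioner, stood at 3.24 ± 2.41 CPM in astrocyte-like and 1.24 ± 1.03 CPM in ganglion-like nuclei, which overlapped. It had no UMI in vehicle myeloid-like nuclei either, where 3 counts would be 11.8 CPM at week 2 and 14.9 CPM at week 4, so that class cannot be placed in the order for FAS or MLKL. RIPK3 was scarce, with 5.76 ± 5.04 CPM in myeloid-like nuclei from 3 UMIs, which overlapped astrocyte-like nuclei, and none in horizontal- or ganglion-like nuclei of any retina. On the CPM scale 4 members were highest in myeloid-like nuclei, and 3 were when nuclei were thinned to 1000 UMIs and compared by the share with a UMI.

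**Figure D1:**
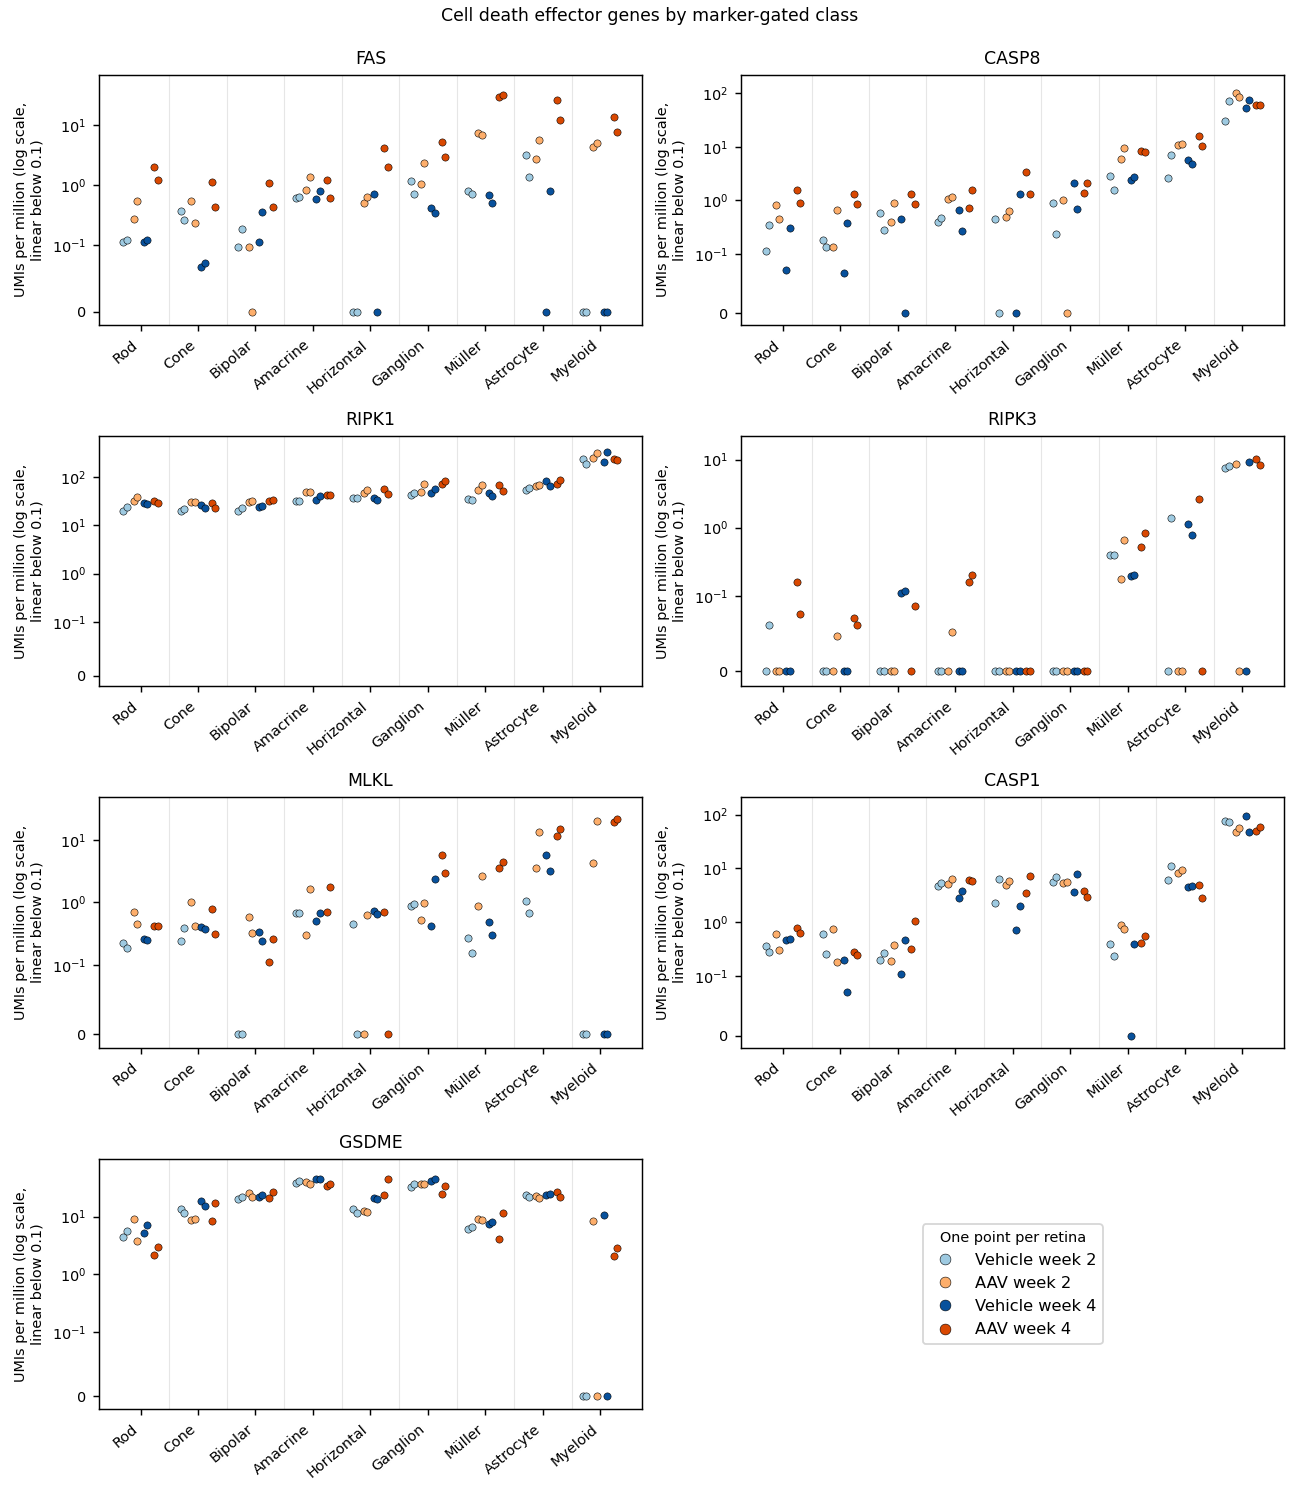
CPM of each of the 7 genes (vertical axes, log scale with a linear part under 0.1) in 9 marker-gated classes (horizontal axes), 1 point per retina coloured by group. RIPK1, CASP8 and CASP1 sit highest in myeloid-like nuclei, GSDME in amacrine- and ganglion-like nuclei, and FAS in the AAV week 4 retinas rises to 29.4 and 31.1 in Müller-like nuclei.

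FAS, the death receptor, showed the widest gap between arms of the measured members in Müller-like nuclei, the glia that span the retina. At week 4 its level was 29.4 CPM (282 UMIs) and 31.1 CPM (112 UMIs) in the AAV retinas and 0.674 CPM (7 UMIs) and 0.497 CPM (5 UMIs) in the vehicle retinas. Both AAV retinas were far above both vehicle retinas, with a log2 fold change of 5.63 ± 0.26 (SE) and an adjusted p of 8.76e-06 by edgeR's quasi-likelihood test with Benjamini-Hochberg adjustment over all genes. The pooled ratio was 50.9, with an exact interval of 28.8 to 99.3 that covers counting error alone. On the log2 scale this interval is wider than the SE of the fit implies. That SE is thus smaller than counting error and understates the uncertainty. Of the AAV Müller-like nuclei, 11.8% and 13.5% held a FAS UMI, against 0.173% and 0.123% in vehicle, where nuclei were less deep. Thinned to 1000 UMIs each, the shares were 3.27% and 3.35% against 0.130% and 0.132%. At week 2 the same nuclei held 7.34 and 6.76 CPM in the AAV eyes and 0.800 and 0.705 CPM in the vehicle eyes, a pooled ratio of 9.23 (5.88 to 15.2).

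FAS also rose at week 4 in astrocyte-like nuclei, the glia of the nerve fibre layer. The AAV retinas held 25.9 CPM (58 UMIs) and 12 CPM (17 UMIs) and the vehicle retinas 0 and 0.784 CPM (1 UMI). The log2 fold change was 5.22 ± 0.871 (edgeR adjusted p = 0.00416), and with 1 vehicle UMI the counting interval of the ratio of 44.1 ran from 7.68 to 1765. The arms overlapped there at week 2, with 2.70 and 5.68 CPM (3 UMIs each) against 3.10 CPM (6 UMIs) and 1.37 CPM (2 UMIs), a pooled ratio of 1.55 (0.444 to 5.10), and the pooled vehicle level was 2.36 CPM at week 2 against 0.464 CPM at week 4. In rod-like nuclei FAS was much lower at week 4, at 2.02 CPM (103 UMIs) and 1.19 CPM (78 UMIs) against 0.110 CPM (3 UMIs) and 0.122 CPM (2 UMIs). This rose by a log2 fold change of 3.84 ± 0.526 (edgeR adjusted p = 0.0102), and the adjusted p was 0.0505 without vehicle animal 7250. Of the AAV rod-like nuclei 0.379% and 0.277% held a FAS UMI, with a median depth of 1858 UMIs over all rod-like nuclei against 2716 over all Müller-like nuclei. The gene had too few counts for a test in the other 6 tested classes, among them ganglion-like nuclei with 5.13 CPM (15 UMIs) and 2.93 CPM (7 UMIs) against 0.413 and 0.342 CPM (1 UMI each).

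CASP8, the initiator protease below FAS, rose in Müller-like nuclei by a smaller factor. The AAV retinas held 8.22 and 8.06 CPM and the vehicle retinas 2.41 and 2.68 CPM, and the arms did not overlap. The log2 fold change was 1.66 ± 0.272 (edgeR adjusted p = 0.00471), and the pooled ratio was 3.22. The call was lost when nuclei were assigned by likelihood (1.11, edgeR adjusted p = 0.0936). At week 2 the level was 5.94 and 9.38 CPM against 2.80 and 1.57 CPM, a pooled ratio of 3.61 (2.72 to 4.85). In rod-like nuclei CASP8 was 1.57 CPM (80 UMIs) and 0.897 CPM (59 UMIs) against 0.0733 CPM (2 UMIs) and 0.306 CPM (5 UMIs), with a log2 fold change of 2.94 ± 0.637 (edgeR adjusted p = 0.0319) that lost its call without either vehicle animal, 7250 or 7251. Astrocyte-like nuclei held 15.6 and 10.6 CPM against 5.70 and 4.70 CPM at week 4, a gap that missed the threshold (log2 fold change 1.43, edgeR adjusted p = 0.0654). Myeloid-like nuclei, which had the highest vehicle level, held 61.2 and 61.2 CPM in AAV and 52.9 and 75.1 CPM in vehicle at week 4, and the arms overlapped. Their log2 fold change was 0.10, close to the median of 0.118 over all genes tested in that class. At week 2 both AAV eyes were above both vehicle eyes in these nuclei, with 102 CPM (24 UMIs) and 86.1 CPM (17 UMIs) against 30.6 CPM (4 UMIs) and 73.0 CPM (9 UMIs), a pooled ratio of 1.85 (0.971 to 3.76), and in astrocyte-like nuclei, with a ratio of 2.48 (1.18 to 5.29).

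RIPK1, the adaptor kinase of necroptosis, was tested in all 9 classes at week 4 and passed the threshold in none. In Müller-like nuclei it was 68.1 and 51.2 CPM against 46.8 and 39.7 CPM (log2 fold change 0.46, edgeR adjusted p = 0.0864). Ganglion-like nuclei, the output neurons of the retina, held 69.8 and 82.0 CPM against 46.3 and 55.1 CPM, with no overlap and a log2 fold change of 0.63 ± 0.161 (edgeR adjusted p = 0.0543). Elsewhere the RIPK1 value was 0.46 in bipolar-, 0.45 in horizontal-, 0.22 in amacrine-, 0.17 in astrocyte-, 0.14 in rod-, 0.13 in cone- and -0.02 in myeloid-like nuclei. The week 4 arms overlapped in rod-, cone-, astrocyte- and myeloid-like nuclei. At week 2, with 1 animal per arm, every AAV eye was above both vehicle eyes in all 9 classes, as for 2.61% of the genes with at least 20 UMIs in each class, for example 53.2 and 68.1 CPM against 34.5 and 33.1 CPM in Müller-like nuclei. Outside astrocyte-like nuclei, where it was 0.23, the week 2 log2 ratio of RIPK1 lay between 0.42 in myeloid-like and 0.88 in Müller-like nuclei.

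MLKL passed the threshold at week 4 in Müller- and astrocyte-like nuclei. Müller-like nuclei held 3.54 CPM (34 UMIs) and 4.45 CPM (16 UMIs) in AAV and 0.481 CPM (5 UMIs) and 0.298 CPM (3 UMIs) in vehicle at week 4, with a log2 fold change of 3.25 ± 0.476 (edgeR adjusted p = 0.00285). It had too few counts for a test there under a stricter limit on markers of a second class and when nuclei were assigned by likelihood. At week 2 the values were 0.873 and 2.67 CPM against 0.267 and 0.157 CPM, a pooled ratio of 9.17 (3.97 to 26.0) that rested on 6 vehicle UMIs. Astrocyte-like nuclei held 11.6 and 14.8 CPM against 5.70 and 3.14 CPM at week 4 (log2 fold change 1.66 ± 0.482, edgeR adjusted p = 0.0466), and this call was lost when any 1 of the 4 retinas, 7248, 7249, 7250 or 7251, was left out. The pooled ratio there was 3.07 (1.49 to 7.13), and 7.59 (2.00 to 42.4) at week 2 from 11 AAV and 3 vehicle UMIs. Ganglion-like nuclei had too few MLKL counts for a test at week 4 and held 5.82 CPM (17 UMIs) and 2.93 CPM (7 UMIs) against 0.413 CPM (1 UMI) and 2.39 CPM (7 UMIs), with no overlap and a pooled ratio of 3.02 (1.31 to 7.77). At week 2 their arms overlapped, with a ratio of 0.787 (0.197 to 2.88). In myeloid-like nuclei at week 4 MLKL had 56 and 47 UMIs in AAV (19.6 and 22.0 CPM) and 0 in both vehicle retinas. The vehicle floor of 3 counts over both retinas, 14.9 CPM, makes this at least 1.38-fold higher, and the edgeR adjusted p was 0.0963. Markers of other immune cells moved in the same nuclei, and their part in the myeloid-like values was not tested. Summed B/plasma markers were 1966 to 2198 CPM in AAV with 9 of 10 seen and MS4A1 at 0, against 75.1 to 106 CPM in vehicle with 2 of 10 seen and MS4A1 and CD79A among those at 0. Summed T/NK markers were 171 to 265 CPM with 9 of 9 seen, against 42.4 to 75.1 CPM with 4 of 9 seen and CD3E and CD3D at 0, while myeloid markers were 3818 to 4574 against 3896 to 4186 CPM. Rod-like nuclei showed 0.411 and 0.410 CPM against 0.257 and 0.245 CPM (edgeR adjusted p = 0.278).

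RIPK3, the kinase that phosphorylates MLKL, had enough counts for a test in myeloid-like nuclei alone. They held 10.1 CPM (29 UMIs) and 8.41 CPM (18 UMIs) in AAV and 0 and 9.38 CPM (1 UMI) in vehicle, and the arms overlapped. In Müller-like nuclei, where FAS, CASP8 and MLKL rose, RIPK3 was 0.520 CPM (5 UMIs) and 0.834 CPM (3 UMIs) against 0.193 and 0.199 CPM (2 UMIs each). No UMI was found in the horizontal- or ganglion-like nuclei of any retina, at depths that set how low a level could have been seen.

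Of the 18 pairs of a pyroptosis member and a class, 12 were tested at week 4 and none was called higher. CASP1 in myeloid-like nuclei was 50.7 and 59.3 CPM in AAV and 95.3 and 46.9 CPM in vehicle at week 4, with overlap. At week 2 both AAV eyes were below both vehicle eyes, at 46.7 and 55.7 CPM against 76.6 and 73.0 CPM, with a pooled ratio of 0.679 (0.351 to 1.33). Amacrine-like nuclei, inhibitory interneurons, held 6.17 and 5.83 CPM of CASP1 against 2.82 and 3.82 CPM at week 4 (log2 fold change 0.84, edgeR adjusted p = 0.125), with no overlap, and the eyes overlapped at week 2 (ratio 1.16). CASP1 had too few counts for a test in horizontal-like nuclei, where the AAV retinas held 3.45 CPM (5 UMIs) and 7.34 CPM (11 UMIs) and the vehicle retinas 0.717 CPM (1 UMI) and 1.98 CPM (3 UMIs), a pooled ratio of 3.95 (1.27 to 16.2). In ganglion-like nuclei CASP1 went the other way at week 4 and missed the threshold (log2 fold change -0.74, edgeR adjusted p = 0.538). GSDME fell in rod-like nuclei, from 5.24 CPM (143 UMIs) and 7.22 CPM (118 UMIs) in vehicle to 2.19 CPM (112 UMIs) and 2.98 CPM (196 UMIs) in AAV. The log2 fold change was -1.16 ± 0.279 (edgeR adjusted p = 0.0426), and the call was lost without 7248, 7250 or 7251. At week 2 the rod-like values were 8.93 and 3.81 CPM against 4.42 and 5.72 CPM, so that the 2 AAV eyes of 1 animal lay on both sides of the vehicle eyes. Amacrine-like nuclei, with the highest GSDME level, held 33.5 and 35.9 CPM against 45.4 and 44.4 CPM at week 4, with no overlap and an edgeR adjusted p of 0.133, and overlapped at week 2 (ratio 0.942). Ganglion-like nuclei had a GSDME log2 fold change of -0.48 at week 4, which missed the threshold (edgeR adjusted p = 0.280). In horizontal-like nuclei GSDME went the other way at week 4 and missed the threshold (log2 fold change 0.63, edgeR adjusted p = 0.341).

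**Figure D2:**
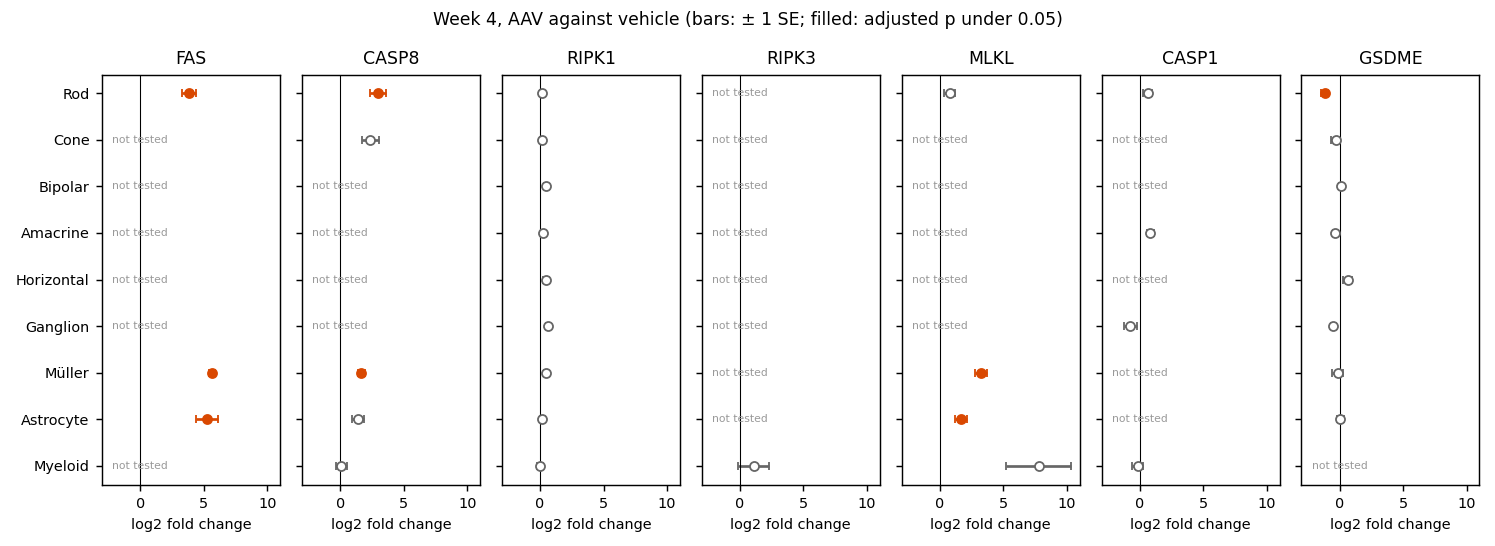
Log2 fold change of AAV against vehicle at week 4 (horizontal axes) for each gene and class (vertical axis) with enough counts for a test, bars of 1 SE, filled points for an adjusted p under the threshold. Where vehicle UMIs are few, a bar can be narrower than counting error alone. FAS lies farthest to the right among filled points, at 5.63 in Müller-like nuclei, and GSDME in rod-like nuclei is the filled point on the left at -1.16.

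In all, 34 of 63 pairs of gene and class had enough counts for a test at week 4. By arm of death, 5 of 8 apoptosis pairs, 2 of 14 necroptosis pairs and 0 of 12 pyroptosis pairs were higher in AAV, and 1 pyroptosis pair was lower. The filter on low counts asked for enough counts in 2 retinas of either treatment, so a pair could become testable through the AAV retinas alone. FAS in Müller-like nuclei did so, with 7 and 5 vehicle UMIs. The numbers of pairs tested here and in the pathway lists thus depend partly on the outcome. They cannot rank the arms of death. The share of all tested genes called higher was 10.9% in Müller-like, 7.95% in astrocyte-like, 6.62% in rod-like and 5.82% in myeloid-like nuclei, 2.74% in horizontal-like, 2.03% in ganglion-like, 1.85% in amacrine-like, 1.44% in bipolar-like and 0.855% in cone-like nuclei. The shares called lower in the same order were 11%, 7.39%, 6.76%, 3.71%, 1.6%, 0.69%, 0.754%, 0.616% and 0.361%. In Müller-like nuclei 3 of 5 tested members were called higher, in astrocyte-like nuclei 2 of 5, and in rod-like nuclei 2 of 6. No member was called in the other 6 classes. With 2 animals against 2, an exact permutation test of 1 gene cannot go below 0.333, so a lack of overlap at week 4 carries little weight alone. The share of all genes without overlap at week 4 was not counted.

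**Figure D3:**
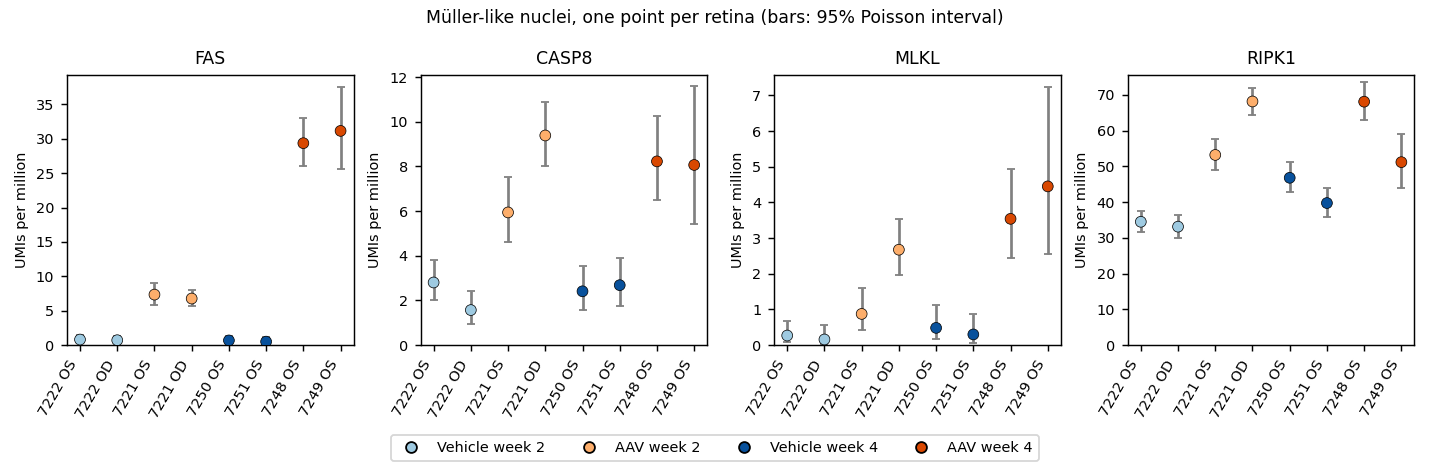
CPM of FAS, CASP8, MLKL and RIPK1 in Müller-like nuclei (vertical axes) in each retina (horizontal axes), with 95% Poisson intervals of the UMI count as bars. For FAS, CASP8, MLKL and RIPK1 alike the AAV retinas sit above the vehicle retinas at both weeks. FAS is at 7.34 and 6.76 at week 2 and at 29.4 and 31.1 at week 4.

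A fit over both weeks, with week as a term and the eyes of a week 2 animal summed, compared 3 AAV with 3 vehicle animals. The same 3 members passed in Müller-like nuclei: FAS (log2 fold change 4.59 ± 0.48, edgeR adjusted p = 0.0017), MLKL (3.22 ± 0.389, edgeR adjusted p = 0.00388) and CASP8 (1.72 ± 0.212, edgeR adjusted p = 0.00411). Of 37 pairs tested, these 3 were higher and 0 were lower. The share of all genes called in either direction in that fit was 5.41% in Müller-like nuclei, 9.73% in myeloid-like, 2.32% in astrocyte-like, 1.72% in horizontal-like, 1.28% in amacrine-like, 1.24% in ganglion-like, 0.78% in bipolar-like, 0.529% in cone-like and 0.528% in rod-like nuclei. Without animal 7221 or without 7222 the count was 6, the 3 further pairs being FAS and CASP8 in rod-like and FAS in astrocyte-like nuclei, and GSDME in rod-like nuclei was then 1 pair called lower.

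The fitted AAV effect on FAS in Müller-like nuclei was larger at week 4 than at week 2 by 2.54 ± 0.482 on the log2 scale (edgeR interaction term, adjusted p = 0.0323), 1 of 44 pairs tested. The spread in that fit comes from the week 4 animals alone and the 1 animal of each week 2 arm is taken to vary like them, so a difference between weeks cannot be told apart from one between animals. Among all genes 3.05% passed the interaction in Müller-like nuclei, 1.62% in astrocyte-like, 1.52% in myeloid-like, 0.151% in rod-like, 0.0838% in horizontal-like, 0.0667% in ganglion-like, 0.0339% in amacrine-like, 0.0211% in cone-like and 0% in bipolar-like nuclei, and 0.686% in the sums over all nuclei. At week 2, of 41 pairs with at least 20 UMIs, 22 had both AAV eyes above both vehicle eyes and 3 had both below. Over all genes under the same rule, 33.2% of pairs had both AAV eyes above and 20.5% both below, and the eyes of an arm came from 1 animal. In rod-like nuclei the week 2 ratios were 3.56 (1.45 to 9.52) for FAS, 2.79 (1.41 to 5.69) for CASP8 and 2.75 (1.36 to 5.78) for MLKL, each from 25 AAV UMIs or fewer.

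Summed over all kept nuclei, 4 members rose and 1 fell at week 4. In such sums, as in bulk tissue, more or fewer cells of a type and more or less RNA per cell cannot be told apart. FAS went from 0.462 and 0.501 CPM in vehicle to 7.72 and 4.70 CPM in AAV (log2 fold change 3.68 ± 0.298, edgeR adjusted p = 0.00156), and CASP8 from 0.672 and 0.895 to 5.76 and 3.93 CPM (2.63 ± 0.275, edgeR adjusted p = 0.0041). RIPK3 went from 0.0672 and 0.0716 to 0.577 and 0.316 CPM (2.67 ± 0.443, edgeR adjusted p = 0.0196) and MLKL from 0.454 and 0.510 to 1.78 and 1.39 CPM (1.72 ± 0.246, edgeR adjusted p = 0.0127). GSDME went down from 20.6 and 23.0 to 12.9 and 14.8 CPM (-0.65 ± 0.139, edgeR adjusted p = 0.0386). CASP1 (0.88, edgeR adjusted p = 0.0889) and RIPK1 (0.40, edgeR adjusted p = 0.0785) missed the threshold. In these sums 6.7% of all genes were called higher and 4.44% lower, and in the fit over both weeks 0.925% were called, among them FAS, CASP8 and MLKL (edgeR adjusted p = 0.0423, 0.0421 and 0.0349), each of which was lost without any 1 of animals 7248, 7249, 7250 and 7251. The calls of RIPK3 and MLKL were lost without either vehicle animal, 7250 or 7251, and that of GSDME without 7248, 7250 or 7251.

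The nuclei that held these UMIs differed by gene. Of 1907 FAS UMIs in the AAV week 4 retinas, 22.4% lay in T/NK-like nuclei, 20.7% in Müller-like nuclei, 9.49% in rod-like nuclei and 31.3% in nuclei that passed no class or 2 classes. At AAV week 2, when T/NK-like nuclei numbered 4 and 6, 38.5% of 540 FAS UMIs lay in Müller-like nuclei. Myeloid-like nuclei held 34.3% of 137 RIPK3 UMIs, 30.2% of 901 CASP1 UMIs, 21.1% of 487 MLKL UMIs and 20.6% of 1488 CASP8 UMIs at AAV week 4. For CASP1 the same class held 3.83% of 366 UMIs at vehicle week 4, when amacrine-like nuclei held 24.9%. Myeloid-like nuclei were more numerous in AAV while their CASP1 level overlapped between arms. Amacrine-like nuclei held 18.2% of 4253 GSDME UMIs at AAV week 4 and 24.1% of 5017 at vehicle week 4.

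**Figure D4:**
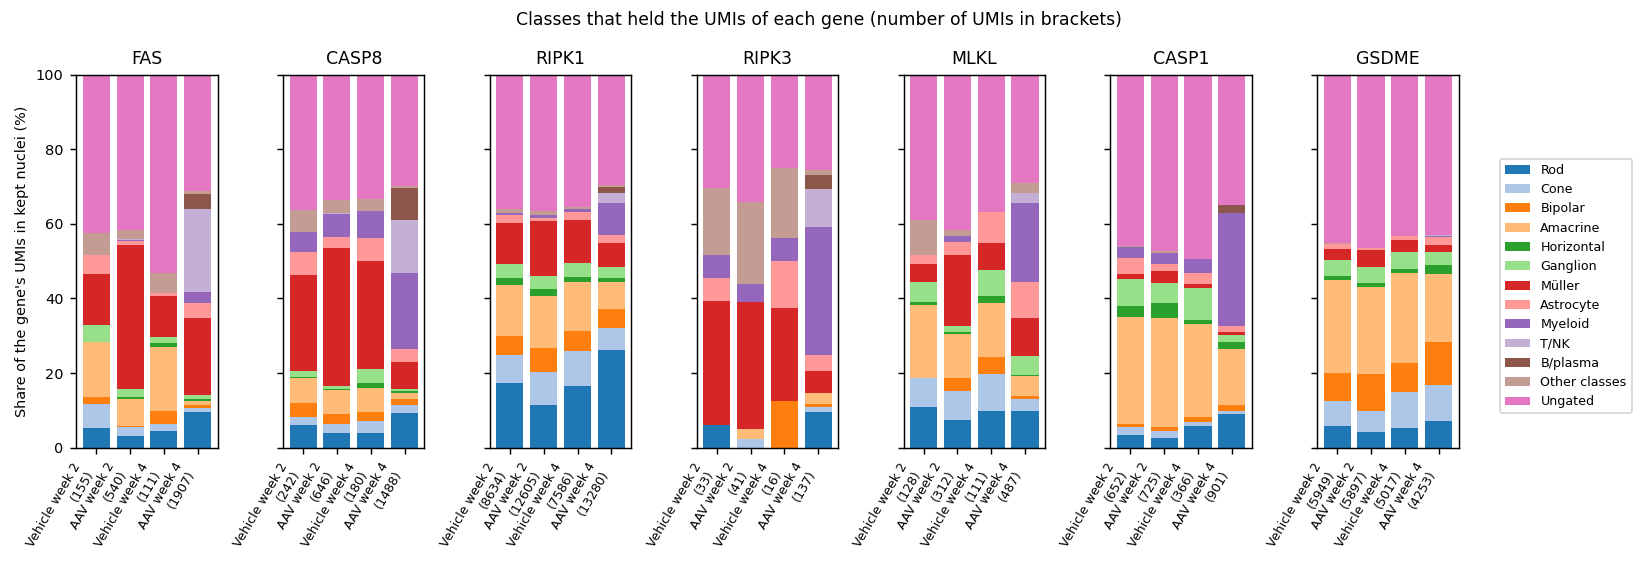
Share of each gene's UMIs in kept nuclei (vertical axis, percent) that lay in each class, stacked, for the 4 groups (horizontal axis) with the number of UMIs in brackets. At AAV week 4, T/NK-like nuclei hold 22.4% of FAS UMIs and myeloid-like nuclei 34.3% of RIPK3 UMIs.

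T/NK-like and B/plasma-like nuclei were too few in vehicle for any comparison between arms, and their AAV week 4 values are given as they stood. FAS was 189 and 215 CPM in T/NK-like nuclei and 46.3 and 75.7 CPM in B/plasma-like nuclei, and 20.6% and 22.5% of the T/NK-like nuclei held a FAS UMI. CASP8 was 107 and 86.7 CPM in T/NK-like and 128 and 90.9 CPM in B/plasma-like nuclei. CASP1 had 1 UMI and 0 UMIs in T/NK-like nuclei and was 13.0 and 18.2 CPM in B/plasma-like nuclei. FASLG, the ligand of FAS, was 24.4 CPM (28 UMIs) and 38.8 CPM (38 UMIs) in T/NK-like nuclei, had 9 and 13 UMIs in the far more numerous rod-like nuclei, and had 0 in Müller-like nuclei of every week 4 retina. TNF, another death ligand, was 20.1 and 18.4 CPM in T/NK-like and 2.45 and 5.14 CPM in myeloid-like nuclei.

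PTPRC, the pan-leukocyte gene CD45, was also higher in retinal classes at week 4, and its part in the results was not tested. It was called higher in cone-, bipolar- and amacrine-like nuclei (log2 fold changes 4.60, 5.49 and 3.99, edgeR adjusted p = 0.0130, 0.00868 and 0.0232). No member was called there, but FAS had too few counts for a test in all 3 classes and CASP8 in bipolar- and amacrine-like nuclei. The pooled ratios of FAS were 10.8 (2.66 to 94.1) in cone-, 3.15 (1.00 to 13.0) in bipolar- and 1.33 (0.680 to 2.61) in amacrine-like nuclei. Those of CASP8 were 5.14 (2.13 to 15.0) in cone-like nuclei, where the edgeR adjusted p was 0.162, 4.62 (1.57 to 18.4) in bipolar-like and 2.40 (1.16 to 5.28) in amacrine-like nuclei. In rod-like nuclei PTPRC was 7.95 and 5.53 CPM in AAV and 0.367 and 0.489 CPM in vehicle at week 4 (log2 fold change 4.09, edgeR adjusted p = 0.00225). Rod-like nuclei of the AAV week 4 retinas held 0.254 and 0.214 FAS UMIs per PTPRC UMI, against 0.3 and 0.25 in vehicle from 10 and 8 PTPRC UMIs, so this ratio was not higher in AAV. In the same AAV retinas T/NK-like nuclei held 0.235 and 0.272 and myeloid-like nuclei 0.0425 and 0.0218. CASP8 gave 0.197 and 0.162 per PTPRC UMI in rod-like nuclei in AAV and 0.2 and 0.625 in vehicle, and in AAV 0.133 and 0.110 in T/NK-like nuclei and 0.196 and 0.178 in myeloid-like nuclei. For the whole marker lists, the summed T/NK markers in rod-like nuclei were 22.6 to 32.3 CPM in AAV with 9 of 9 markers seen, against 9.02 to 9.30 CPM in vehicle with 7 of 9 and CD3D and CD5 at 0. Summed B/plasma markers were 57.5 to 58.9 against 27.8 to 31.7 CPM with MS4A1 and CD79B at 0 in vehicle, and myeloid markers 27.2 to 37.7 against 12.8 to 14.7 CPM with 13 of 13 seen in both.

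In Müller-like nuclei PTPRC was 4.68 and 2.22 CPM in AAV against 0.385 and 0.0993 CPM in vehicle (log2 fold change 3.84, edgeR adjusted p = 0.00513). FAS was 6.27 and 14.0 UMIs per PTPRC UMI there, from 45 and 8 PTPRC UMIs, against 1.75 and 5 in vehicle from 4 and 1. In astrocyte-like nuclei the ratio was 9.67 and 17 in AAV, from 6 and 1 PTPRC UMIs. CASP8 was 1.76 and 3.62 per PTPRC UMI in AAV Müller-like nuclei and 6.25 and 27 in vehicle, lower in both AAV retinas. MLKL was 0.756 and 2 in AAV and 1.25 and 3 in vehicle, which overlapped. These vehicle ratios too rest on 4 and 1 PTPRC UMIs. Summed T/NK markers in Müller-like nuclei were 14.7 to 22.0 CPM in AAV with 9 of 9 seen and 11.6 to 16.6 CPM in vehicle with CD3D and CD2 at 0. B/plasma markers were 80.4 to 92.0 against 43.1 to 55.7 CPM, with CD79B at 0 in both arms and MS4A1 in vehicle, and myeloid markers were 40.9 to 42.8 against 27.0 to 32.5 CPM with 12 of 13 seen in each arm. In astrocyte-like nuclei the sums were 12.1 to 13.4 against 7.06 to 7.98 CPM for T/NK, 84.8 to 85.1 against 80.9 to 87.0 CPM for B/plasma and 23.2 to 46.4 against 10.2 to 17.1 CPM for myeloid markers, with CSF1R, C1QA and C1QB among 10 myeloid markers at 0 in vehicle.

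**Figure D5:**
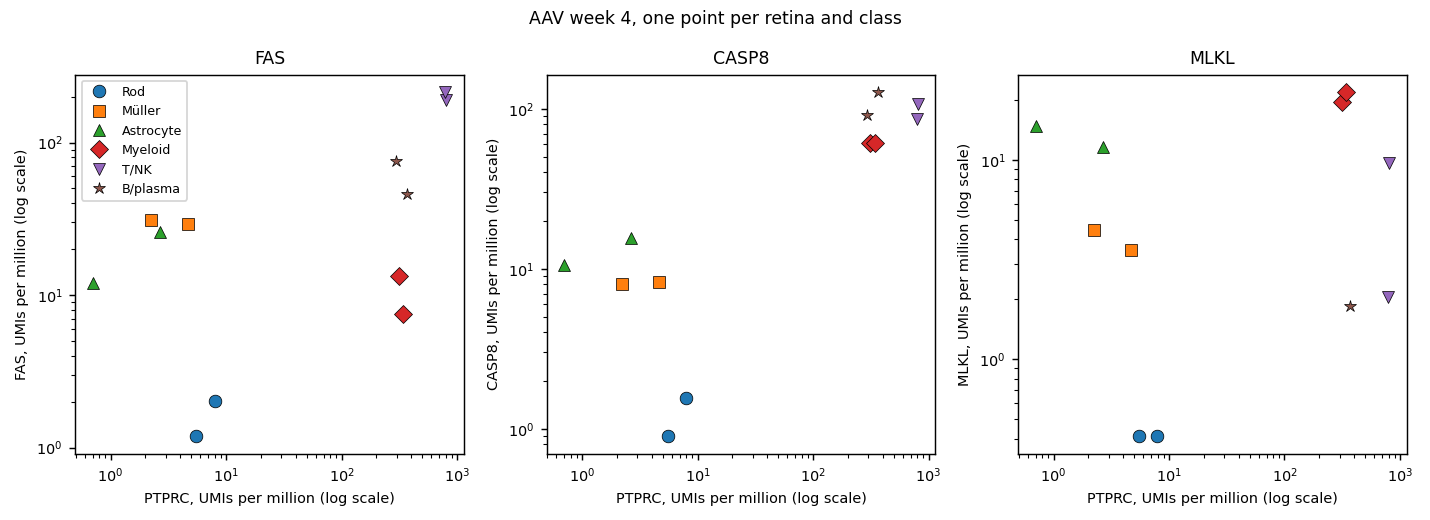
CPM of FAS, CASP8 and MLKL (vertical axes, log scale) against PTPRC CPM (horizontal axes, log scale) in the 2 AAV week 4 retinas. There is 1 point per retina for rod-, Müller-, astrocyte-, myeloid-, T/NK- and B/plasma-like nuclei, and a gene at 0 cannot be drawn on this axis. FAS in Müller-like nuclei, at 29.4 and 31.1, lies high for its PTPRC level of 4.68 and 2.22, while T/NK-like nuclei have FAS at 189 and 215.

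The vector's own transgene was used to split nuclei of the AAV retinas by at least 1 EGFP UMI, with animal as a block. Of 18 pairs of member and class tested, 1 was called. GSDME in rod-like nuclei was 10.6, 3.56 and 6.36 CPM with EGFP and 5.73, 2.10 and 2.77 CPM without in animals 7221, 7248 and 7249 (log2 difference 0.92 ± 0.217, edgeR adjusted p = 0.00431), higher in 3 of 3 animals. Nuclei with EGFP were deeper, with 2622, 2774 and 3117 UMIs on average against 2052, 2251 and 2541, and their summed amacrine markers were 155, 95.8 and 83.0 CPM against 128, 75.1 and 52.4 CPM. The call was lost without animal 7249, without the replicate block, and with every nucleus thinned to 1000 UMIs, where the log2 difference was 0.27. FAS in rod-like nuclei was 0.623, 1.94 and 1.06 CPM with EGFP and 0.396, 2.02 and 1.19 CPM without, and no other pair of member and class passed. The share of all genes called in this comparison was 7.28% in rod-like, 7.49% in bipolar-like, 4.68% in cone-like, 1.2% in amacrine-like and 0.951% in ganglion-like nuclei. The other classes had fewer than 50 EGFP-positive nuclei in an animal.

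The rest of the death pathways was followed through lists of other genes, of which none was called lower in any class at week 4. Of 37 other apoptosis genes in the files, 12 of 31 tested were higher in Müller-like nuclei, 10 of 33 in rod-like, 4 of 21 in astrocyte-like, 2 of 31 in amacrine-like and 0 of 29 in cone-like nuclei, and 1 each in bipolar-like (of 28), horizontal-like (of 18), ganglion-like (of 25) and myeloid-like nuclei (of 28). The median log2 fold change of that list in Müller-like nuclei was 0.52, against -0.01 over all genes tested. CFLAR, the inhibitor that competes with CASP8, was higher in 7 of 9 classes. In Müller-like nuclei it was 134 and 117 CPM against 47.1 and 46.0 CPM at week 4 (log2 fold change 1.42 ± 0.125, edgeR adjusted p = 0.000246) and 66.1 and 108 against 38.7 and 39.2 CPM at week 2. BCL2, which holds back the mitochondrial pathway, was higher in 2 of 9 classes, with 477 and 424 against 141 and 134 CPM in Müller-like nuclei. The initiator CASP10, a relative of CASP8, was higher in 4 of 7 classes tested, the TNF receptor TNFRSF1A in 3 of 4 and the BH3-only gene PMAIP1 in 2 of 3.

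The 16 other necroptosis genes were all in the files, and 9 of 15 tested were higher in Müller-like, 5 of 15 in astrocyte-like, 3 of 15 in myeloid-like and 3 of 16 in rod-like nuclei. There were 2 of 15 in amacrine-like nuclei, and 1 in each of cone-like and bipolar-like (of 14) and horizontal-like and ganglion-like nuclei (of 13). The median log2 fold change in Müller-like nuclei was 0.62. ZBP1, a sensor of Z-form nucleic acid that can engage RIPK3, was higher in all 9 classes. Its level in Müller-like nuclei was 41.6 and 52.8 CPM against 0.289 and 0.298 CPM at week 4 (log2 fold change 7.23 ± 0.301, edgeR adjusted p = 6.3e-06), and 39.9 and 59.1 against 0.467 and 0.548 CPM at week 2. The astrocyte-like and ganglion-like nuclei of both vehicle week 4 retinas held no ZBP1 UMI. TNFAIP3, which restrains TNF signaling, was higher in 4 of 7 classes, with 152 and 125 against 10.6 and 9.38 CPM in myeloid-like nuclei and 11.7 and 5.56 against 0.193 and 0.298 CPM in Müller-like nuclei. BIRC3, a ubiquitin ligase of RIPK1, was higher in 4 of 9 and the RNA sensor TLR3 in 3 of 5, while TRAF2 and BIRC2 were higher in 1 of 9 each.

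The files listed 9 of 18 other pyroptosis genes, and 2 of 5 tested were higher in Müller-like, 2 of 6 in rod-like, 1 of 3 in astrocyte-like, 1 of 5 in each of cone-, bipolar- and amacrine-like, 0 of 6 in myeloid-like and 0 of 1 in horizontal- and ganglion-like nuclei. GSDMD, the gasdermin cut by CASP1, was 15.1 and 13.6 CPM against 2.50 and 1.89 CPM in Müller-like nuclei at week 4 (log2 fold change 2.69 ± 0.259, edgeR adjusted p = 0.000401). At week 2 it was 2.97 and 5.51 against 2.53 and 1.64 CPM. NLRP3, an inflammasome sensor, was higher in 5 of 6 classes tested, at low levels such as 2.78 and 2.27 against 0.550 and 0.367 CPM in rod-like nuclei. PTPRC was also called higher in those 5 classes, and its part was not tested. At week 2 NLRP3 overlapped between arms in rod-, bipolar-, amacrine- and Müller-like nuclei. Rod-like nuclei then held 0.974 and 0.0886 against 0.746 and 0.615 CPM. Cone-like nuclei did not overlap, at 0.544 and 0.278 against 0.122 and 0.263 CPM. The myeloid-like level of NLRP3 at week 4 was 462 and 485 CPM in AAV and 519 and 404 CPM in vehicle, and that class was not called (log2 fold change 0.22, edgeR adjusted p = 0.575). NINJ1, which acts in membrane rupture, was higher in 1 of 6 classes, and IL18, GSDMB and NEK7 in none of 7, 4 and 9.

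Genes with patterns like each member were ranked by Pearson's r of log2(CPM + 1) over 72 points of 8 retinas and 9 classes, among 8685 genes with a symbol and a mean of at least 10 CPM. The points share retinas, and r is given as a description. The closest 3 were BAZ1A (0.965), CYBA (0.949) and ELK3 (0.948) for CASP8, and GBP1 (0.841), PARP3 (0.836) and VWA5A (0.830) for FAS. For RIPK1 they were IKBKB (0.941), MTMR14 (0.940) and IFNAR2 (0.939), for RIPK3 PICALM (0.837), SLC49A3 (0.821) and CDC42SE1 (0.820), and for MLKL FN1 (0.786), ATL3 (0.759) and GBP1 (0.756). CASP1 was closest to SSH2 (0.930), IFNGR2 (0.922) and GNB4 (0.917), and GSDME to BEND6 (0.875), OSBPL6 (0.870) and APBA2 (0.852).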

How the data were processed

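Nuclei sorted on DAPI from 8 frozen retinas were captured with the 10x GEM-X 3′ v4 chemistry, 4 lanes per retina. The authors deposited whole-number UMI counts per gene and barcode from Cell Ranger 8.0.0 on Sscrofa11.1 with EGFP added, filtered to called barcodes and not normalized (per the submitters' processing notes and the study's methods). No barcode held fewer than 500 UMIs, and 18049 of 35683 features had no symbol.

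Nuclei were filtered with an miQC-type 2-component regression of mitochondrial share against detected genes (posterior 0.75). A nucleus joined a class when its distinct markers exceeded the number expected from other classes at its depth by at least 1.5 and reached 0.5 of the class's own expectation. Nuclei passing 2 classes were left out, which was the treatment of doublets, except that astrocyte-like nuclei could carry Müller markers. Of 136 fixed markers, 126 were in the files. The thresholds of the gate were set after nuclei had been seen. UMIs were summed per retina and class, and classes with at least 50 nuclei in each retina were tested. Tests used edgeR 4.0.16 with limma 3.58.1 in R 4.3.3 (quasi-likelihood, TMM, filterByExpr, two-sided, Benjamini-Hochberg over all genes of a class, threshold 0.05), and DESeq2 1.42.0 as an alternative. Other alternatives changed the scaling, the low-count filter, the animals, the filter and depth of nuclei and the gate. The labels do not say more of the separate animals than their numbers, and nuclei or eyes of 1 animal were not used as replicates. Intervals are exact Poisson or binomial, at 95%, and cover counting error alone, to which the depth of 121544835 to 173614051 UMIs per retina applies. An SE beside an edgeR result can be smaller than counting error alone gives where vehicle UMIs are few. This holds at week 4 for FAS and MLKL in Müller-like and FAS in rod-like nuclei, and for the FAS interaction term. These SEs are not full errors. Tables were handled in Python 3.11.15 with numpy 2.4.6, scipy 1.17.1 and pandas 2.3.3. On simulated Müller-like counts with 17788 genes and a log2 change of 2 in 200 of them, 88% were recovered and 6.38% of calls were of unchanged genes. The same step with 10467 genes of myeloid-like nuclei recovered 39.5%, with 3.66% of calls unchanged. Every simulated gene had the same set spread between retinas (negative binomial dispersion 0.05), not estimated from these data, so the shares hold for that setting.

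Genes named are the 8 members, the 6 per pathway list called in the most classes at week 4 (ties by the larger fold), of which 1 is not reported here, and the 3 genes per member with the highest correlation. FASLG, TNF and PTPRC were given beside them, the ligands and the leukocyte gene being chosen after values were seen. The members and lists were chosen with earlier results of these data known. TNFSF10 was not found by symbol, and no table used here pairs it with an identifier of the files.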

Additional observations from a re-analysis of the deposited data

Results flagged for a closer look

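The fitted AAV effect on FAS in Müller-like nuclei passed the threshold for a difference between the weeks. Its log2 fold change was 2.54 larger at week 4 than at week 2 by edgeR's interaction term (adjusted p = 0.0323, SE 0.482), from a pooled ratio of 9.23 at week 2 to 50.9 at week 4. Vehicle levels were 0.800 and 0.705 CPM at week 2 and 0.674 and 0.497 CPM at week 4, and AAV levels were 7.34 and 6.76 CPM and 29.4 and 31.1 CPM. Each week 2 arm was both eyes of 1 animal, the spread came from the week 4 animals alone, with the week 2 animals taken to vary like them, and batch, animal and week cannot be told apart for week 2. No group had 4 or more retinas, so single retinas could not be examined for standing apart from their group.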

How the results depend on the processing

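FAS in Müller-like nuclei kept its week 4 call in every alternative in which it was fitted (log2 fold change 5.40 to 5.86). MLKL in Müller-like nuclei had too few counts for a test under a stricter limit on markers of a second class and under assignment by likelihood, and CASP8 there was 1.11 (edgeR adjusted p = 0.0936) under assignment by likelihood. The 7 pairs called higher at week 4 became 12 without a filter on low counts, 4 with the stricter second class, 3 under assignment by likelihood and 4 to 7 with 1 retina left out. The 1 pair called lower became 0 under assignment by likelihood and 0 to 1 with 1 retina left out. MLKL in astrocyte-like nuclei also lost its call under DESeq2's Wald test (adjusted p = 0.322) and with all 6 animals in the fit (edgeR adjusted p = 0.0694), and had too few counts for a test under the 3 other gates. With a retina left out of a pair, the lone sample is taken to vary like the other group. Over both weeks the 3 pairs called higher became 3 to 6 and the 0 called lower became 0 to 1 with 1 animal left out. The fits without a week 2 animal draw the AAV effect from the week 4 animals alone. At week 2 the 3 pairs with every AAV eye lower became 9 with left eyes and 12 with right eyes, since 1 eye per arm is easier to separate, and GSDME in rod-like nuclei turned to -0.59 with right eyes.

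Values below the threshold that changed sign at week 4 were as follows, and the cause was not tested. With 1 retina left out, RIPK1 ran from 0 to 0.26 in cone-like, -0.01 to 0.33 in astrocyte-like and -0.26 to 0.45 in myeloid-like nuclei. GSDME ran from -0.98 to 0.14 in cone-like, -0.11 to 0.27 in bipolar-like, -0.92 to 0.62 in Müller-like and -0.08 to 0.20 in astrocyte-like nuclei. In myeloid-like nuclei CASP8 ran from -0.07 to 0.47 and CASP1 from -0.53 to 0.45. With the stricter second class RIPK1 in cone-like nuclei was -0.02, and in myeloid-like nuclei CASP1 was 0.17 and RIPK1 0.23. Under assignment by likelihood GSDME in Müller-like nuclei was 0.20, RIPK1 in astrocyte-like nuclei -0.01 and RIPK1 in myeloid-like nuclei 0.63. With 1 more marker required GSDME in bipolar-like nuclei was -0.07 and CASP1 in myeloid-like nuclei 0.19. Without a filter on low counts CASP1 in myeloid-like nuclei was 0.01 and RIPK1 0.16, with nuclei from 1000 UMIs 0.02 and 0.05, and with all barcodes RIPK1 was 0.03.

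The EGFP comparison was paired by animal, since nuclei with and without EGFP came from the same retinas. Its 1 called pair became 0 without the replicate block, 0 in nuclei thinned to 1000 UMIs and 0 to 1 with 1 animal left out. Between the AAV and vehicle arms no paired analysis was possible because the replicate numbers join different animals.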
